A study of Homo sapiens with 3 samples.

Results

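The library described here came from untreated PANC-1 cells, an established human cell line derived from a carcinoma of the pancreatic duct. It was chosen by its label, which gives no agent, and is 1 of the 3 libraries of the series. The other 2 came from the same line after 24 h with 200 μM Rg3, a ginsenoside, or with 50 μM tamoxifen (TAM), and no value of theirs enters the levels below. The cells of all 3 libraries were grown in DMEM with 10% fetal calf serum, total RNA was extracted with TRIzol and cleaned on a column, and the reads came from an Ion Proton sequencer.

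The study deposited raw counts of reads per gene symbol, 51136 symbols in all, and all of them were read in the untreated library. Its counts came to 11300766, those of the Rg3-treated library to 12861693 and those of the TAM-treated one to 11321442. CPM are counts scaled to a library total of 1000000, so that 1 count was 0.0885 CPM and 10 counts were 0.885 CPM. A gene was called detected with at least 10 counts. Of all symbols, 15616 (30.5%) were detected, and of the 19140 that matched a protein-coding gene of GENCODE 29, 12113 (63.3%) were. With 1 library of the condition there is no replicate, no test was made, and the 95% intervals given with values are exact Poisson intervals that cover counting error only. A count of 0 is taken to allow up to 3 counts, or 0.265 CPM, and its two-sided exact interval reaches 0.326 CPM. The sources do not say whether the cells of several cultures were pooled, and the library shows this culture in serum and not the tumour in its tissue. In RNA from many cells, few cells with many transcripts and many cells with few cannot be told apart.

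Exocrine pancreas consists of acinar cells, which make digestive enzymes, and ductal cells, which carry the secretion and are marked by keratins and the transcription factor SOX9. Carcinoma cells of ductal origin keep some epithelial genes and can also carry mesenchymal ones, such as the intermediate filament vimentin, and expression subtypes of the disease are named for that balance. PANC-1 is known as a poorly differentiated line with a deletion at the CDKN2A locus and an amplification around AKT2.

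The state of the line was read from 5 genes, which the sample label does not name. KRT8 and KRT18, the keratin pair of simple epithelia, had 15329 counts (1356 CPM, 95% interval 1335 to 1378) and 11216 counts (992 CPM, 974 to 1011). VIM, which encodes vimentin, had 55276 counts (4891 CPM, 4851 to 4932) and ranked 9 among all symbols. ANPEP, the surface aminopeptidase CD13, had 9069 counts (803 CPM, 786 to 819), and COL18A1, the collagen chain from which endostatin is cut, had 9423 counts (834 CPM, 817 to 851). All 5 genes ranked within the first 167 symbols, so that the epithelial keratins KRT8 and KRT18 and the mesenchymal VIM were abundant in the same RNA. Levels of different genes were compared as CPM per kilobase, which divides CPM by the length of the longest annotated transcript. On that scale VIM stood at 1835, KRT18 at 475, KRT8 at 474, ANPEP at 218 and COL18A1 at 127, and VIM was 3.87 times KRT8. With the median transcript length instead of the longest, KRT18 was 0.47 times KRT8.

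Those genes lie, in GRCh38, at chr12:52897187-52949954 (KRT8, minus strand), chr12:52948871-52952901 (KRT18, plus strand), chr10:17228259-17237593 (VIM, plus strand), chr15:89784889-89815401 (ANPEP, minus strand) and chr21:45405137-45513720 (COL18A1, plus strand). KRT8 overlaps KRT18, VIM overlaps VIM-AS1 and COL18A1 overlaps SLC19A1 on the other strand, and whether strand was used in counting is not given in the sources used here. Both keratins also have many processed copies in the genome. Of all 50-base stretches of their transcripts, 22.1% for KRT8 and 21.7% for KRT18 recur in transcripts of other genes, against 0% for VIM, ANPEP and COL18A1. The table holds 48 symbols named as KRT8 pseudogenes with 3525 counts and 65 named for KRT18 with 2202 counts, so that the keratin levels are less certain than that of VIM.

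The promoters of 4 such genes are shown because the word CAGGTG, or CACCTG on the other strand, is the core of the E-box that repressors of epithelial genes of the SNAI and ZEB families are known to bind. CRB3, a polarity protein, and RAB25, a vesicle GTPase, are epithelial genes that were not detected here, with 2 and 0 counts, and KRT8 and VIM were abundant. They were chosen after their counts and promoters were seen. Sequences are from RefSeq (GRCh38.p14), 250 bases before to 50 after the start, written 5′ to 3′ in the direction of the gene, with the word in capitals. They lie at chr19:6464021-6464320 (CRB3, plus strand), chr1:156060910-156061209 (RAB25, plus strand), chr12:52926420-52926719 (KRT8, minus strand) and chr10:17227991-17228290 (VIM, plus strand). The starts of CRB3 and KRT8 used here lie inside the GENCODE 29 genes, which have other annotated starts, and the search covers these windows alone.
CRB3: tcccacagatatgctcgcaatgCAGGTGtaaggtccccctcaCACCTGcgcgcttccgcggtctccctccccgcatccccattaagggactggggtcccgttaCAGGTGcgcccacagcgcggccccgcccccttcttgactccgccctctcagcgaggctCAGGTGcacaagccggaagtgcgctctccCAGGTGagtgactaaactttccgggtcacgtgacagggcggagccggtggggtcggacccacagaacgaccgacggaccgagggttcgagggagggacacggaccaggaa
RAB25: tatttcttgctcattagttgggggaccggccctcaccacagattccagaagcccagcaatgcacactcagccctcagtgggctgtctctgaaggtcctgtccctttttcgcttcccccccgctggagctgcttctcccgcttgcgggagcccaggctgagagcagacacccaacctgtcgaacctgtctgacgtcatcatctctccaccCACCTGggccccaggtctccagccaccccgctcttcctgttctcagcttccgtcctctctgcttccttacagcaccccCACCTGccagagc
KRT8: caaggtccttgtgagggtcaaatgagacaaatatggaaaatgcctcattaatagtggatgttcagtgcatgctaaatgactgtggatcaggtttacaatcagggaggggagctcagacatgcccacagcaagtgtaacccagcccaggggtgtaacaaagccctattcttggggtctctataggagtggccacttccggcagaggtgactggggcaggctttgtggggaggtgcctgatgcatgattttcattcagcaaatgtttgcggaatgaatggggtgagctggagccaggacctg
VIM: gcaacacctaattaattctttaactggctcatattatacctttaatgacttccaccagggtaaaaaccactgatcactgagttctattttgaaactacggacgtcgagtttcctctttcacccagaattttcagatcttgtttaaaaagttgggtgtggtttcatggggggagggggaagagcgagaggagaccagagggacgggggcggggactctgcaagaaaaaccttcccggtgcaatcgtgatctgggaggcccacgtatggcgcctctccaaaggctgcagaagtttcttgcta
The word stood 5 times in the window of CRB3, 2 times in that of RAB25 and in neither of the others. Over the gene lists, with the first promoter given for each gene, it was in 12 of the 21 epithelial genes with a promoter in the reference table (57.1%) and in 3 of 27 mesenchymal genes (11.1%), against 20.6% of 27305 genes. The 5 epithelial genes under 10 counts with a promoter there, KRT5, KRT20, CLDN3, CRB3 and RAB25, all held the word, and 7 of the 16 detected ones did. The list has 45 epithelial genes, and most of them, CDH1 and EPCAM among them, were not searched. Whether the word has a part in these levels was not tested. These are matches of letters in 1 window a gene and not bound sites.

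RPS16, a protein of the small ribosomal subunit, led with 188583 counts, which is 1.67% of all counts. The 10 most abundant genes held 7.21% of the counts (exact binomial 95% interval, 7.19 to 7.22), the first 20 held 10.6% and the first 100 held 23.8%. After RPS16 came the actins ACTB with 84159 counts and ACTG1 with 83101, and beside them the mitochondrial oxidase subunits COX1 with 83903 and COX2 with 55878. Glycolytic enzymes followed with GAPDH at 76308 counts, ENO1 at 72852 and PKM at 51981. The nucleolar methyltransferase FBL had 62398 counts, the actin crosslinker ACTN4 had 50389 and the kinase AKT2 had 36021. The remaining places among the first 20 went to VIM, TUBB with 42495 counts, TMSB10 with 41148, EEF1A1P5 with 40054, ND4 with 36128, GNB2L1 (RACK1) with 35467, RPS3 with 34953, TUBA1B with 34798 and EEF1A1 with 34797. Some of these levels are uncertain, since 49.5% of the 50-base stretches of COX1, 29% of those of COX2, 31.5% of those of TUBA1B and 16.1% of those of TUBB recur in transcripts of other genes. RPS16, FBL, ACTN4 and AKT2, which are 4 of the first 16 genes, lie near each other on chromosome 19.

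**Figure D1:**
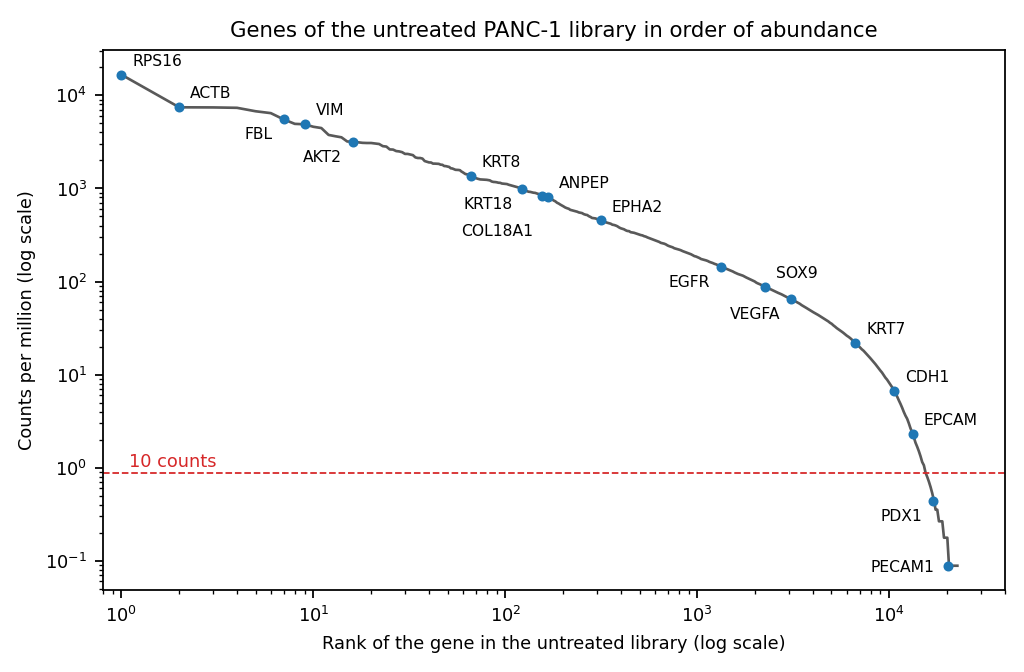
CPM (log scale) of every symbol with at least 1 count in the untreated library against its rank (log scale). Points mark named genes, and the dashed line marks 10 counts. RPS16 stands apart at 16688 CPM, VIM lies at rank 9, the keratins KRT8 and KRT18 at ranks 66 and 122, and CDH1 and EPCAM near the lower end at 6.73 and 2.30 CPM.

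Genes of the mitochondrial genome held 3.08% of the counts, most of it (2.80%) in its protein genes and 0.278% in its ribosomal RNAs. The 84 ribosomal protein genes held 7.37%, and 82 of them were detected. RPS16 alone was 5.40 times the next of them and 29.3 times their median of 6439 counts. A further 4.23% of the counts lay on symbols named as ribosomal protein pseudogenes.

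The pair EEF1A1 and EEF1A1P5 is an example of a gene and a named copy that both rank high. How reads were assigned between them was not tested. EEF1A1 encodes elongation factor 1 alpha, and EEF1A1P5 is an intronless copy of it. The coding bases of EEF1A1 and the copy align over 1389 bases with 4 differences (99.7% identity), and their longest identical run has 425 bases. The bases 249 to 338 of both are shown, counted from the first base of the start codon, with their 1 differing base in capitals. EEF1A1 lies at chr6:73515750-73523797 (minus strand) and EEF1A1P5 at chr9:133019486-133020874 (plus strand) in GRCh38.
EEF1A1: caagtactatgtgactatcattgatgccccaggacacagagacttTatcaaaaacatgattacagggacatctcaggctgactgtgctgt
EEF1A1P5: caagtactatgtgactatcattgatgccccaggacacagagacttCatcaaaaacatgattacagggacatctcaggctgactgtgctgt
The library gave 34797 counts to the gene and 40054 to the copy, and 76797 to the 43 symbols named as its pseudogenes together. Of the 50-base stretches of the copy, 89.6% also occur in other transcripts. Reads within such stretches cannot be told apart, and the levels of both are uncertain.

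On chromosome 19, many genes from SPINT2 to AKT2 stood at high levels over 2.04 megabases (chr19:38244035-40285536, GRCh38). The limits were set after the values were seen. The stretch holds 66 protein-coding genes, of which 49 were detected (74.2%, against 63.4% elsewhere), and 31 of the 66 had at least 1000 counts (47%, against 10.7% elsewhere). The median over its detected genes was 71.0 CPM per kilobase, against 5.88 over all other detected protein-coding genes. Its genes held 547850 counts, 4.85% of the library, and 3.18% without RPS16.

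Members from end to end of the stretch showed this. The protease inhibitor SPINT2 had 17886 counts and PPP1R14A 5421, the proteasome subunit PSMD8 had 8553 and the initiation factor subunit EIF3K 14041. ACTN4 had 50389, the peroxisomal enzyme ECH1 15302 and the kinase PAK4 4484. PAF1 and SUPT5H, both of transcript elongation, had 12767 and 18508 counts, MED29 of the Mediator 10611, the mitochondrial translocase subunit TIMM50 19699, and the proteasome subunit PSMC4 29571. Their products act in different processes. The level was not high in every gene there, since RASGRP4, SYCN, IFNL1, IFNL2, LGALS13, LGALS16, CLC and LEUTX had 0 counts. Several detected genes there also stood below the median of 5.88 CPM per kilobase over detected genes elsewhere. Among them were FAM98C at 3.64, RYR1 at 2.68, GMFG at 2.41 and ZNF546 at 1.12. Just past AKT2, C19orf47 had 351 counts and 8.56 CPM per kilobase, and the next gene, PLD3, had 1419 counts and 57.6, so that the limit on this side is not sharp.

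The stretch of the same length before SPINT2 had a median of 0.612 CPM per kilobase over 24 detected genes, most of them zinc finger genes, and none of its 32 genes had 1000 counts. The stretch of the same length after AKT2 had 10.4 over 41 detected genes, and the rest of chromosome 19 had 8.26 over 867. In windows of 15 consecutive detected protein-coding genes over the genome, the median window stood at 6.08 CPM per kilobase. The highest of 11778 windows, from MRPS12 to TIMM50, stood at 142. The 4 highest all lay between SPINT2 and AKT2, but the other 6 of the 10 highest lay on chromosome X. Windows that follow each other share most of their genes. The 4 overlap each other, as do the 6, so that they are not separate places. The 35 windows within the stretch reached down to 6.15, and 5875 windows of the genome stood at or above that. The highest window without any gene of the stretch, from NAA10 to LAGE3 on chromosome X, stood at 101. DNA copy number was not measured in these data, and its part in these levels was not tested.

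**Figure D2:**
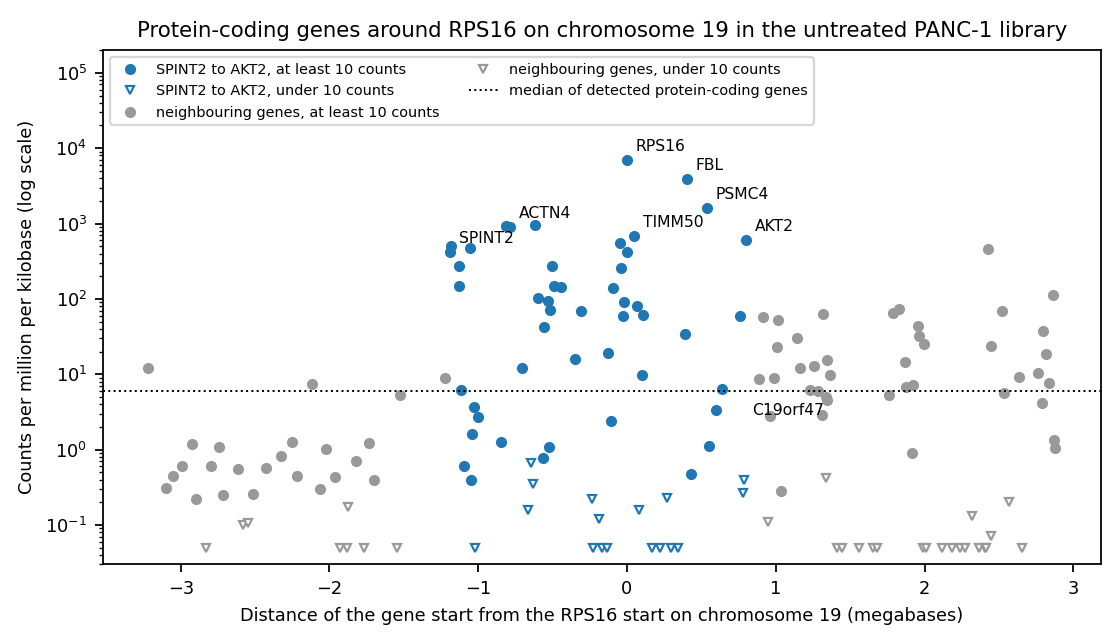
CPM per kilobase (log scale) of protein-coding genes against the distance of their start from that of RPS16 in megabases, with genes between SPINT2 and AKT2 in blue and their neighbours in grey. Filled points have at least 10 counts, open triangles fewer, and genes at 0 are drawn at the lower edge. The blue genes have a median of 71.0 when detected, against 0.612 to their left and 10.4 to their right, and the dotted line marks the median of 5.93 over detected protein-coding genes.

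At the CDKN2A locus on chromosome 9, a tumour suppressor locus, CDKN2A and its neighbour CDKN2B had 0 counts. The adjacent MTAP, a methionine salvage enzyme, had 248 counts, and beyond it KLHL9 had 196 and FOCAD 335. The interferon genes between them were at 0, and DMRTA1 on the other side had 8. Among other genes altered in pancreatic cancer, the chromatin remodeller ARID1A had 1695 counts (17.5 CPM per kilobase) and the kinase STK11 1088 (27.1). SMAD4, which carries TGF-beta signals to the nucleus, had 193 counts (17.1 CPM, 95% interval 14.8 to 19.7). In all, 11 of these 14 genes were detected (78.6%, against 63.3% of protein-coding genes), and the 3 at 0 were CDKN2A, CDKN2B and RNF43. Counts do not show whether the transcripts carry mutations.

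Of the epithelial genes, 32 of 45 were detected (71.1%, against 63.3% of protein-coding genes). Keratins differed widely. KRT8 was 11.2 times KRT19 (665 counts) and 37.9 times KRT7 (248 counts) per kilobase, and KRT5 and KRT14, the keratins of basal layers, were at 0. Of the junction genes, 20 of 21 were detected, led by CTNNA1 with 5106 counts (118 CPM per kilobase) and JUP with 3669 (92.8), and CLDN4 of tight junctions had 1658. Their detection went with a low level of the cadherin itself. CDH1, which encodes E-cadherin, had 76 counts (6.73 CPM, 95% interval 5.30 to 8.42), and EPCAM, an epithelial adhesion molecule, had 26 (2.30 CPM, 1.5 to 3.37). Of the regulators and surface proteins, 5 of 13 were detected. SPINT2 led them with 416 CPM per kilobase and lies in the stretch of chromosome 19 described above, whose part in this value was not tested. The splicing factor ESRP2 had 340 counts while its paralog ESRP1 had 0, ELF3 had 451, MUC1 had 147, and the factor GRHL2 was at 0.

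Of the mesenchymal genes, 37 of 43 were detected (86.0%, against 63.3% of protein-coding genes), and 16 had at least 1000 counts. Outside the stretch of chromosome 19, 10.7% of protein-coding genes had that many. The cytoskeleton and adhesion genes were the most abundant, with S100A6 at 21921 counts (2882 CPM per kilobase), VIM at 1835 and LGALS1, galectin 1, at 9537 counts (1325). S100A6 stood above VIM by the longest transcript and below it by the median transcript length (ratios of 1.57 and 0.63). CDH2, which encodes N-cadherin, had 626 counts (55.4 CPM, 95% interval 51.1 to 59.9) and was 9.30 times CDH1 per kilobase, or 25.8 times with the median transcript length. The caveola protein CAV1 had 2346 counts. The factors known to drive the mesenchymal state had far fewer counts, with FOXC2 first at 202. ZEB1 had 127 counts (11.2 CPM, 9.37 to 13.4), SNAI1 had 102, ZEB2 had 27, SNAI2 had 4 and TWIST1 had 0, and ZEB1 was 7.19 times ZEB2 per kilobase. Of the matrix genes, 13 of 15 were detected, with COL5A2 at 3123 counts, but FN1, fibronectin, had 10 counts (0.885 CPM, 0.424 to 1.63). The 2 chains of type I collagen were unequal, with 1853 counts for COL1A1 and 2 for COL1A2.

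**Figure D3:**
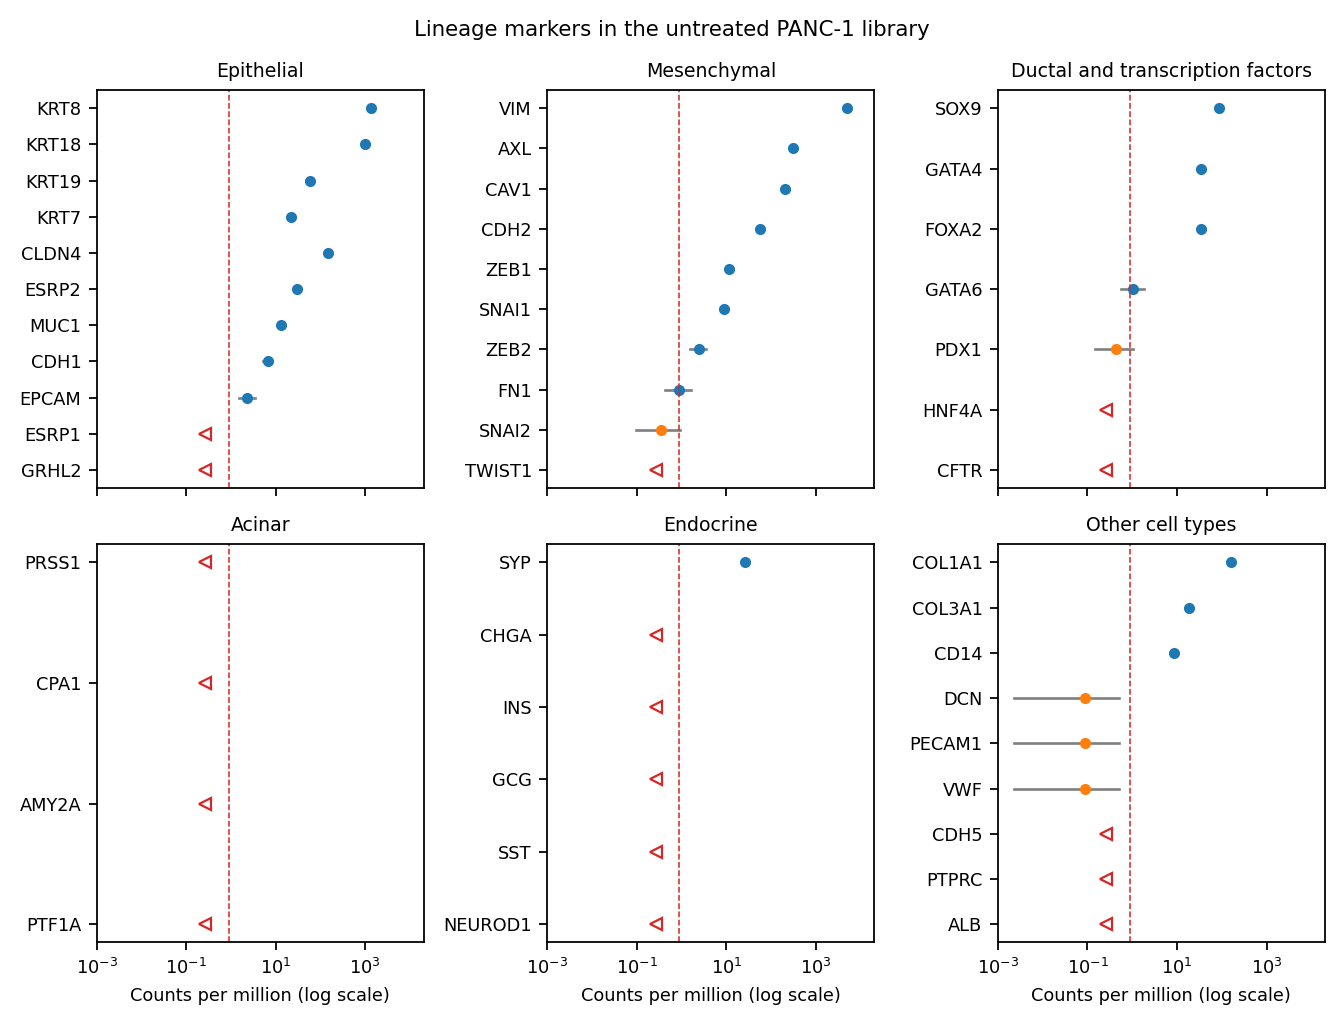
CPM (log scale) of lineage markers, with exact Poisson 95% intervals as bars. Blue points have at least 10 counts, orange points fewer, and open red triangles mark 0 counts at the 0.265 CPM that such a count allows; the dashed line marks 10 counts. KRT8, KRT18 and VIM lie at 992 CPM or higher, SOX9 at 88.1 CPM, and the 4 acinar markers and the islet hormones shown are at 0.

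Of 33 ductal genes and pancreatic transcription factors, 11 were detected (33.3%, against 63.3% of protein-coding genes). SOX9, the factor of ductal and progenitor cells, had the most counts of the factors, 996 (88.1 CPM, 95% interval 82.7 to 93.8). TEAD1, a partner of YAP, had 551 counts, GATA4 had 397 and FOXA2, a foregut factor, had 382, while GATA6 had 12 (1.06 CPM, 0.549 to 1.85). GATA4 was 36.5 times GATA6 per kilobase, or 90.6 times with the median transcript length. PDX1, the factor of pancreatic identity, had 5 counts, and HNF4A was at 0. Of the 13 ductal products 1 was detected, the anion exchanger SLC26A6 with 361 counts, and the chloride channel CFTR was at 0. Of the other 12 products, 8 had 1 to 9 counts and 4 were at 0.

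No acinar gene was detected. Of 30, 27 were at 0, among them the trypsinogen PRSS1, the carboxypeptidase CPA1, the amylase AMY2A and the factor PTF1A, and the other 3 were CEL with 3 counts, AMY2B with 2 and NR5A2 with 2. Of 27 endocrine genes 5 were detected (18.5%, against 63.3% of protein-coding genes). The neuronal enolase ENO2 had 736 counts, the vesicle protein SYP 296, the granins CHGB 93 and SCG2 24, and the adhesion molecule NCAM1 21. Of the 6 hormones, GHRL had 1 count and 5 were at 0, among them INS, GCG and SST. The granin CHGA and the factor NEUROD1 were at 0.

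Lists after the expression subtypes of pancreatic cancer of Moffitt and of Collisson and colleagues were read in the same way. Of 24 Moffitt classical genes 1 was detected (4.17%), AGR2, a disulfide isomerase, with 1426 counts (126 CPM, 95% interval 120 to 133), and the trefoil genes TFF3 and TFF2 had 8 and 3. Of 25 Moffitt basal-like genes 8 were detected (32.0%), led by the glucose transporter SLC2A1 with 1653 counts (146 CPM, 139 to 153), S100A2 with 303 and KRT7. KRT6A was at 0 and KRT17 had 2 counts. Of 22 Collisson classical genes 7 were detected (31.8%), with GPRC5A at 1343 counts and ELF3 after AGR2. Of 20 quasi-mesenchymal genes 14 were detected (70.0%), among them AHNAK2 with 5580 counts, PHLDA1 with 3276, CAV1, and CKS2 with 556 counts, which led per kilobase at 80.3 but stood behind CAV1 with the median transcript length. Of 20 exocrine-like genes 1 was detected (5.00%), SLC3A1 with 10 counts, and CEL had 3 and CELA2B 0. Over all protein-coding genes the share detected was 63.3%, near the 70.0% of the quasi-mesenchymal list, and over all symbols it was 30.5%. These are shares of genes with at least 10 counts in 1 cell line and no subtype call was made from them.

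**Figure D4:**
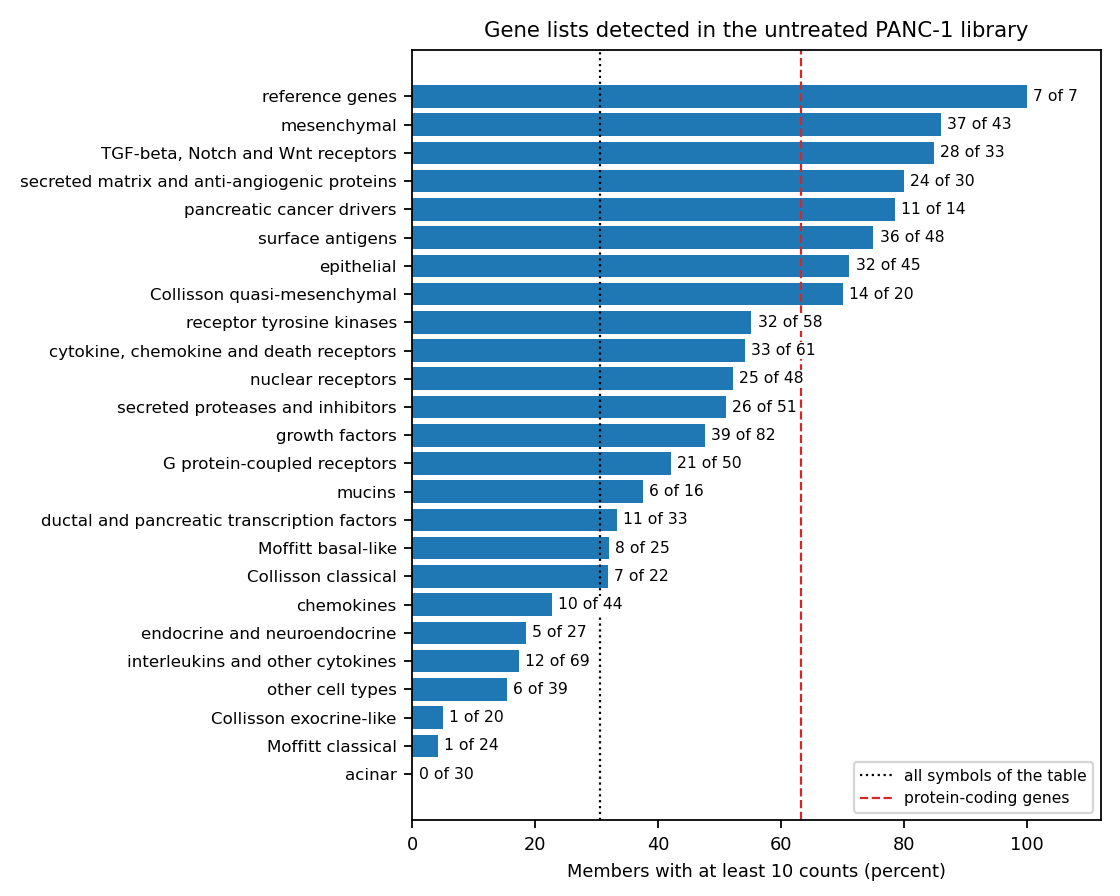
Share of the members of each gene list with at least 10 counts in the untreated library (percent), with the number of members beside each bar. The dotted line marks the share over all symbols (30.5%) and the dashed line that over protein-coding genes (63.3%). Several lists lie above both lines, among them mesenchymal genes, epithelial genes, surface antigens and the receptors of TGF-beta, Notch and Wnt. Acinar, Moffitt classical and exocrine-like genes lie near 0.

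Markers of other cell types were low as a group, with 6 of 39 detected (15.4%, against 63.3% of protein-coding genes). Of 10 endothelial genes 2 were detected, ESAM with 116 counts and KDR with 49, while PECAM1 and VWF had 1 each and CDH5 and CLDN5 had 0. Of 15 blood genes 2 were detected, CD68 with 615 counts and CD14 with 97, while PTPRC, CD3D and HBB were at 0. For CD68, 92.6% of the 50-base stretches are shared with other annotated transcripts. Of 8 fibroblast genes 2 were detected, COL1A1 and COL3A1 with 214 counts, while DCN had 1 and LUM 0. ALB was at 0 and APOA1 had 1. The summed level of each group was 15.5 CPM for endothelial, 64.0 for blood, 184 for fibroblast and 0.531 for hepatocyte and adipocyte genes. COL1A1 gave 164 CPM of the fibroblast sum and CD68 gave 54.4 CPM of the blood sum.

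Receptor tyrosine kinases bind growth factors at the cell surface. Of 58, 32 were detected (55.2%, against 63.3% of protein-coding genes), 10 of them with at least 1000 counts. EPHA2, a receptor of ephrins, led with 5125 counts (454 CPM, 95% interval 441 to 466) and 114 CPM per kilobase. AXL, the receptor of GAS6, had 3529 counts (65.9 per kilobase), and PTK7, a pseudokinase of Wnt signalling, had 2826 (47.3). The receptors of FGF, EGF and IGF ligands had fewer counts than these. FGFR1 had 1804 counts (25.7 per kilobase), EGFR had 1630 (14.7), ERBB2 had 1200 (21.5) and IGF1R had 1127 (8.15), and MET, the receptor of HGF, had 422 (5.63). With the median transcript length, however, FGFR1 and IGF1R stood above AXL and PTK7 per kilobase, with AXL at 0.63 times FGFR1 and 0.70 times IGF1R. By that length DDR1 came next after EPHA2, ahead of FGFR1. EPHA2 was 7.79 times EGFR per kilobase, and AXL was 4.49 times EGFR, or 1.90 times with the median transcript length. The receptors of VEGF ligands were scarce, with 49 counts for KDR (VEGFR2; 4.34 CPM, 3.21 to 5.73), 1 for FLT1 and 0 for FLT4, whereas the coreceptor NRP1 had 503. PDGFRB had 4 counts and PDGFRA 0.

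Nuclear receptors are transcription factors switched by lipophilic ligands, and 25 of 48 were detected (52.1%, against 63.3% of protein-coding genes). The orphan receptor NR2F6 had the most counts, 1078 (39.7 CPM per kilobase), beside the oxysterol receptor NR1H2 with 851 (31.6) and the retinoid receptor RARG with 965 (28.9). With the median transcript length it stood below both, at 0.41 times RARG and 0.72 times NR1H2. Most steroid receptors were not detected at this depth. Tamoxifen is known as a ligand of the estrogen receptors, and ESR1 had 0 counts and ESR2 had 1 (0.0885 CPM, 95% interval 0.00224 to 0.493). PGR was at 0, the glucocorticoid receptor NR3C1 had 287 counts (25.4 CPM, 22.5 to 28.5) and the vitamin D receptor VDR had 20. The estrogen-related receptor ESRRA, which binds no estrogen, had 601 counts, PPARG had 365, and the membrane estrogen receptor GPER1 had 16.

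Of the receptors of TGF-beta, Notch and Wnt ligands, 28 of 33 were detected (84.8%, against 63.3% of protein-coding genes). TGFBR2 and TGFBR1, which together bind TGF-beta, had 782 counts (69.2 CPM) and 313 (27.7 CPM), and the coreceptor ENG had 538. All 4 Notch receptors were detected, with NOTCH2 at 2026 counts and NOTCH1 at 452. LRP5, a Wnt coreceptor, led the list with 4373 counts (387 CPM, 95% interval 376 to 399).

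Of the receptors of cytokines, chemokines and death ligands, 33 of 61 were detected (54.1%, against 63.3% of protein-coding genes), and they divided by family. All 13 receptors of the TNF family were detected, with TNFRSF12A, the TWEAK receptor, at 1332 counts (70.2 CPM per kilobase), TNFRSF1A at 1462 (58.2) and TNFRSF1B at 338 (8.12). Of 29 cytokine receptors 20 were, with IFNGR2 at 1404 counts (55.9), IL6ST, the shared chain gp130, at 594 and IL6R at 190. None of 19 chemokine receptors was, and 16 were at 0, among them CXCR1, CXCR2 and CXCR4. The highest of them, CCR6, had 7 counts.

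Of 50 G protein-coupled receptors 21 were detected (42.0%, against 63.3% of protein-coding genes). F2RL1, the protease-activated receptor PAR2, led with 3447 counts (305 CPM, 95% interval 295 to 315), and was 4.56 times F2R, the thrombin receptor, per kilobase (991 counts). The adenosine receptor ADORA2B had 1510 counts, the neurotensin receptor NTSR1 had 1125 and the somatostatin receptor SSTR2 had 2.

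Of 48 surface antigens 36 were detected (75.0%, against 63.3% of protein-coding genes), and 19 had at least 1000 counts. The tetraspanin CD151 led with 12778 counts (609 CPM per kilobase), followed by BSG, basigin, with 9346 (386). ANPEP lay behind them at 218, but ahead of BSG with the median transcript length, and was 1.72 times COL18A1, or 5.11 times with the median transcript length. B2M, the light chain of class I molecules, had 4763 counts and the glypican GPC1 992. Several antigens of carcinomas were low or not seen. The urokinase receptor PLAUR had 117 counts, mesothelin (MSLN) had 10, tissue factor (F3) had 3 and CEACAM5 had 0. Of 16 mucins 6 were detected (37.5%, also against 63.3%), with MUC1 first, MUC5AC at 65 counts, MUC3A at 23 and MUC4 at 1.

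Of 82 growth factors 39 were detected (47.6%, against 63.3% of protein-coding genes). The matricellular factor CYR61 led with 9421 counts (834 CPM, 95% interval 817 to 851) and was 5.82 times its relative CTGF (1654 counts) per kilobase, or 9.38 times with the median transcript length. GDF15, a stress cytokine, had 2698 counts (199 CPM per kilobase) and GRN, progranulin, had 1834 (69.3). Angiogenic ligands were present at different levels. PDGFB had 1913 counts (169 CPM, 162 to 177), ANGPTL4 had 1367, VEGFA had 734 (65.0 CPM, 60.3 to 69.8) and VEGFB had 484. PGF had 258 counts, PDGFA 107 and VEGFC 45, and the angiopoietins ANGPT1 and ANGPT2 were at 0. PDGFB was 9.07 times VEGFA per kilobase, or 3.41 times with the median transcript length. Of 22 FGF ligands 3 were detected, with FGF2 at 68 counts, and of 11 EGF family ligands 6 were, with TGFA at 101 and EGF at 0. TGFB1 had 456 counts, midkine (MDK) had 75 and HGF had 0.

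Chemokines were sparse, with 10 of 44 detected (22.7%, against 63.3% of protein-coding genes) and none at 1000 counts. CCL2, which attracts monocytes, had 135 counts (11.9 CPM, 95% interval 10.0 to 14.1), CXCL1 had 128 and CXCL16 had 123. CXCL8, which attracts neutrophils, had 23 and CXCL2 had 17. Of 69 interleukins and other cytokines 12 were detected (17.4%, also against 63.3%), and 4 of these had at least 1000 counts. They were MIF with 3749 counts, LIF with 1405 (124 CPM, 118 to 131), TNFSF9 with 1053 and CSF1 with 1008. For MIF, 34.9% of the 50-base stretches recur in other transcripts. IL6 had 3 counts (0.265 CPM, 0.0547 to 0.776), TNF had 7 and CSF2 had 0, and LIF was 180 times IL6 per kilobase with the interval of IL6 spanning 0.0359 to 0.508.

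Of the 51 secreted proteases and inhibitors 26 were detected (51.0%, against 63.3% of protein-coding genes). Cathepsin D (CTSD) led with 10132 counts, though 60.6% of its 50-base stretches recur in other annotated transcripts, and cathepsin B (CTSB) had 6169. PLAU, the urokinase, had 4120 counts (365 CPM, 95% interval 354 to 376). Of 23 matrix metalloproteinases 7 were detected and 1 of them was abundant, MMP2, a gelatinase, with 2576 counts. MMP14, the membrane protease that activates pro-MMP2, had 77 counts, MMP1 had 8 and MMP9 had 0, and MMP2 was 33.4 times MMP14 per kilobase, or 14.2 times with the median transcript length. Of the tissue inhibitors, TIMP1 had 2399 counts and TIMP2 had 1445, and TIMP1 was 5.54 times TIMP2, or 8.99 times.

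Of 30 secreted matrix and antiangiogenic proteins 24 were detected (80.0%, against 63.3% of protein-coding genes). The saposin precursor PSAP had 32187 counts (992 CPM per kilobase), clusterin (CLU) 11451 (329) and TGFBI 9158 (174). COL18A1 followed at 127, whereas THBS1, thrombospondin 1, an inhibitor of angiogenesis, had 72 counts (6.37 CPM, 95% interval 4.99 to 8.02). COL18A1 was 155 times THBS1 per kilobase, or 21.3 times with the median transcript length.

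Ligands and receptors of the same pair were often unequal. VEGFA at 5.34 CPM per kilobase stood beside KDR at 0.716 and FLT1 at 0.0125, and PDGFB at 48.4 beside PDGFRB at 0.0619. The ligand exceeded its kinase receptor in both. In the opposite direction, HGF and EGF were at 0 beside MET at 5.63 and EGFR at 14.7, and FGF2 at 0.888 stood below FGFR1 at 25.7. GAS6 at 27.5 and AXL at 65.9 were both high. LIF at 31.3 stood above its receptor LIFR at 1.95, IL6 at 0.174 below IL6R at 2.84, TNF at 0.370 below TNFRSF1A at 58.2, and PLAU at 137 above PLAUR at 6.43. CXCL8 at 1.19 had neither of its receptors, CXCR1 and CXCR2, at 1 count. The directions in these pairs with VEGFA, PDGFB, FGF2, LIF (beside LIFR), IL6, TNF and PLAU were the same with the median transcript length. LIF also stood above the shared chain IL6ST (5.80), but with the median transcript length it stood below IL6ST (54.5 against 85.9). Levels of RNA do not give amounts of protein at the surface or in the medium.

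**Figure D5:**
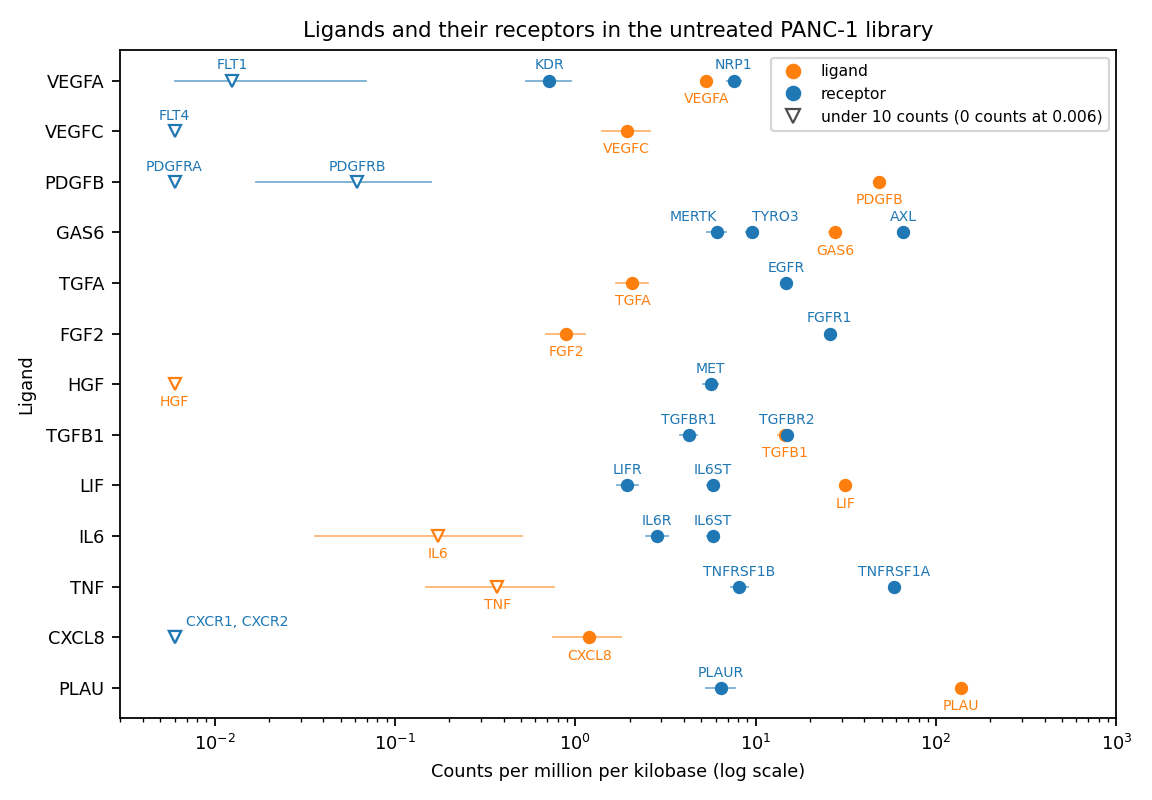
CPM per kilobase (log scale) of ligands (orange) and their receptors (blue), 1 ligand a row, with exact Poisson 95% intervals as bars. Open triangles have under 10 counts, and genes at 0 are drawn at the left edge. PDGFB, LIF and PLAU lie to the right of their receptors, and HGF, FGF2, IL6 and TNF to the left of theirs.

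The 7 reference genes were all detected, from TBP with 353 counts and HPRT1 with 368 to ACTB with 84159, and GAPDH had 3601 and ACTB 3317 CPM per kilobase, an order that turned with the median transcript length.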

How the data were processed

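PANC-1 cells were sequenced in 3 libraries, and the untreated library was described. Its members and the 25 gene lists (863 different genes) were chosen with earlier results of these data known. The authors deposited raw read counts per gene symbol, without normalization. The paper's methods name FAST-QC, TopHat and MAQ, and the submitters' processing notes name GRCh38. Annotation, counting tool and strand are not given in the sources used here. Libraries were grouped by their labels, and all columns belonged to a mapped library. The total of 11300766 counts limits what is seen, since 1 count is 0.0885 CPM.

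From the deposited counts, CPM and CPM per kilobase were computed in Python 3.11.15 (pandas 2.3.3, numpy 2.4.6, scipy 1.17.1). Lengths came from GENCODE 29, to which 30924 symbols matched by name, 15 by mitochondrial name, 642 by another name and 876 by synonym; the other 18679 held 1.80% of the counts. Intervals were exact (Poisson, or Clopper-Pearson for shares). The Poisson intervals were run on simulated Poisson counts, which checks the computation only and not variation between cultures. Shared reads were judged by stretches of 50 bases that recur in another gene's transcripts. Genes named were the 20 most abundant, the key genes of each list and the 3 members of each list highest per kilobase, and others were named after their values were seen. No test was possible with 1 library per condition. Alternatives were other count minimums, other totals, TMM scaling (edgeR 4.0.16, R 4.3.3), DESeq2 1.42.0 size factors, the median transcript length and levels without length. Promoters of CDH1, EPCAM, KRT18 and SOX9 were not analysed here. The treated libraries enter only the scaling factors and a few counts in the closing section. Values of some genes that the naming rule covers are not reported here.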

Additional observations from a re-analysis of the deposited data

Results flagged for a closer look

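Among list genes under 10 counts in the untreated library, 1 had at least 30 counts in a treated library, which is data outside the description of the untreated cells. MMP1, an interstitial collagenase, had 8 counts (0.708 CPM) in the untreated library and 47 counts (4.15 CPM) in the TAM library. The difference was not tested, since each condition has 1 library.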

How the results depend on the processing

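No paired analysis was possible because the untreated cells gave a single library, and nothing was tested. With a minimum of 1 count, 24 ductal genes and factors, 3 acinar, 9 endocrine, 9 Moffitt classical, 13 Collisson classical, 2 exocrine-like, 32 G protein-coupled receptors, 22 interleukins and other cytokines, 10 mucins and 21 genes of other cell types were detected. With a minimum of 50 counts, 7 ductal genes and factors, 3 endocrine genes, 0 exocrine-like genes, 4 chemokines and 2 mucins were, and with a minimum of 1 CPM 0 exocrine-like genes were. The number of genes detected ranged from 11684 to 22647 over these minimums. With genes of the mitochondrial genome and ribosomal proteins left out of both the ranking and the total, the 10 most abundant remaining genes held 6.13% of the remaining counts. The stretch from SPINT2 to AKT2 held 3.18% of the counts without RPS16, an alternative chosen after seeing the data, and its median was 216 CPM per kilobase with the median transcript length, 11.7 times that of the other genes. By that length, among the ratios between pairs of genes, S100A6 over VIM turned to 0.626, COL5A2 over COL1A1 to 0.167, GAPDH over ACTB to 0.502, KRT18 over KRT8 to 0.473, AXL over FGFR1 to 0.63 and over IGF1R to 0.703, PTK7 over FGFR1 to 0.593 and over IGF1R to 0.662, NR2F6 over RARG to 0.413 and over NR1H2 to 0.722, BSG over ANPEP to 0.797 and CKS2 over CAV1 to 0.639. Other totals multiplied CPM by 0.977 to 1.12. The median transcript length moved 124 of 195 levels per kilobase beyond their counting interval, so that levels of different genes rest on the length chosen more than on depth. The cause of these shifts was not tested beyond the change of setting itself.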

Other observations

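Of the 458 list genes under 10 counts in the untreated library, 443 were under 10 counts in both treated libraries as well. Of the 313 at 0, 1 reached 10 counts in a treated library.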
